A study of Mus musculus with 5 samples.

Results

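Of 22180 genes represented on the arrays, 8 that mark or drive the ILC1 and ILC3 lineages were followed in lung ILC2s: Il12rb1, Il12rb2, Il23r, Tbx21, Eomes, Ifng, Il17a and Il22. They were chosen by name, for their known roles, with earlier results of these data known. Each was measured by 1 probe set that the platform annotation pairs with that symbol alone. The cells were group 2 innate lymphoid cells (ILC2s) from the lungs of naive adult male mice, according to the labels. IL-33 knockout ILC2s were hybridised on 2 arrays and wild-type ILC2s on 3, each labelled a biological replicate. The knockout was of the mouse, not of the ILC2s alone, and the labels do not give the allele, the strain, the sorting gates or any pooling of animals.

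Innate lymphoid cells are lymphocytes without rearranged antigen receptors and fall into classes that mirror helper T cells. ILC1s depend on the T-box factor T-bet and make interferon-gamma, ILC3s make IL-17 and IL-22, and ILC2s depend on GATA3 and make IL-5 and IL-13. IL-12 drives the type 1 programme through a receptor of IL-12R beta 1 and beta 2, and IL-23 the type 3 programme through IL-12R beta 1 paired with the IL-23 receptor. ILC2s that are exposed to such cytokines are known to be able to take on ILC1-like or ILC3-like features. IL-33 is an epithelial and stromal alarmin that activates ILC2s, so the comparison asks how these transcripts read in ILC2s of naive mice that lack it.

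Values are log2 probe-set signals, which have no zero point. A probe set's signal also depends on its probes, so signals of different genes were not ranked against each other, and each is placed only among the 41345 probe sets of its own array. The array medians lay between 4.29 and 4.33. On these bulk arrays, fewer cells of a type and less RNA per cell cannot be told apart. All 21 measured ILC2 identity genes read above the median of every array, and their mean was 8.36 to 8.39 in knockout arrays and 8.35 to 8.45 in wild-type arrays. Gata3, the factor that defines ILC2s, read 8.21 and 7.89 in knockout arrays, against 8.21, 8.16 and 8.50 in wild-type arrays. In knockout replicate 2 the sex markers were mixed, and 1 of them goes against the label of male sex: Xist, transcribed from the inactive X chromosome of female cells, read 7.91 there, 3.10 in knockout replicate 1 and 2.35 to 3.10 in wild-type arrays. The Y-linked genes measured were Kdm5d, Eif2s3y and Uty. Kdm5d had its lowest value in knockout replicate 2, 4.79, and read 5.57 to 5.63 on the other arrays. Eif2s3y was also lowest there, at 6.14, and read 6.82 to 7.62 elsewhere. Uty was instead highest there, at 7.17, and read 5.83 to 6.96 elsewhere. The plot of lineage gene differences therefore also shows each of the 8 for knockout replicate 1 alone. The text gives that value for Il12rb1, Il23r, Tbx21, Il17a and Il22. It is also given for the medians of the IL-12 family and interferon-gamma lists. The differences of other single genes and the other list medians are over both knockout arrays.

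The shared receptor chain gene Il12rb1 had a signal in the upper part of each array, and its partner genes read near or below the lower quartile. Il12rb1, which encodes the chain common to the IL-12 and IL-23 receptors, read 5.40 and 5.94 in knockout arrays, against 6.19, 5.98 and 6.0 in wild-type arrays. Between 71.5% and 81.8% of the probe sets on each array read lower. Both knockout arrays lay below all 3 wild-type arrays, although knockout replicate 2 missed the lowest wild-type value narrowly. The means were 5.67 ± 0.38 (SD, n = 2) in knockout and 6.06 ± 0.12 (SD, n = 3) in wild type, a 1.30-fold lower signal in knockout. The log2 difference, knockout minus wild type, was -0.38, with a limma 95% interval of -0.94 to 0.17 and an adjusted p of 0.623. It was -0.65 with knockout replicate 1 alone and -0.11 with replicate 2 alone.

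Il12rb2, the chain that with IL-12R beta 1 forms the IL-12 receptor, read 3.17 and 3.11 in knockout arrays, against 3.33, 3.17 and 3.17 in wild-type arrays. The value 3.17 was identical on 3 arrays, and the groups overlapped. On each array 22.0% to 26.6% of probe sets read lower, which is about the lower quartile. Il23r, the chain specific to IL-23, read 2.64 and 3.23 in knockout arrays, against 3.08, 3.37 and 3.01 in wild-type arrays. Its lowest value was in knockout replicate 1, while replicate 2 lay inside the wild-type range. The difference was -0.22 over both arrays, -0.52 with knockout replicate 1 alone and 0.08 with replicate 2 alone, so its direction rested on replicate 1. Between 14.8% and 26.9% of probe sets read lower than Il23r. In the gene order of the RefSeq table for GRCm38.p6, Il12rb2 and Il23r are neighbouring protein-coding genes on chromosome 6.

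**Figure D1:**
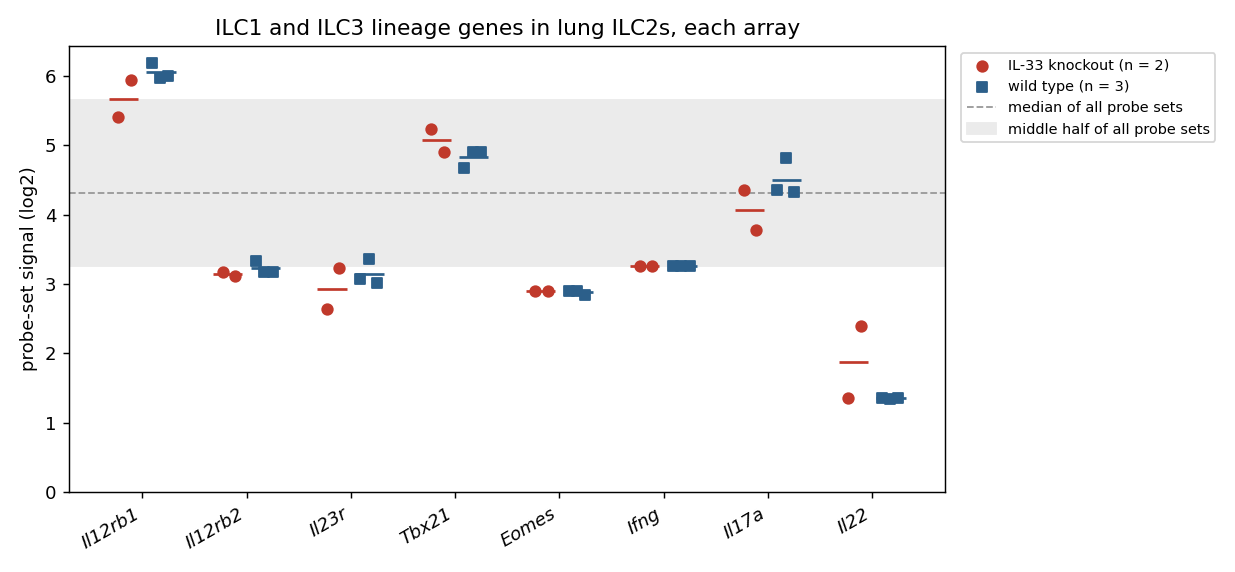
Probe-set signal (log2, vertical axis) of the 8 lineage genes on each array, IL-33 knockout as circles (n = 2) and wild type as squares (n = 3), with short lines at the group means. The grey band runs from the lower to the upper quartile of all probe sets and the dashed line their median, both averaged over arrays. Il12rb1 and Tbx21 lay above the dashed line on all 5 arrays, Il17a lay on both sides of it, and the other 5 genes stayed near or below the lower edge of the band.

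Of the type 1 transcription factor genes, Tbx21 read above the array median and Eomes below the lower quartile of each array. Tbx21, which encodes T-bet, the defining factor of ILC1s, read 5.24 and 4.90 in knockout arrays, against 4.67, 4.90 and 4.90 in wild-type arrays. Knockout replicate 1 was the highest of the 5, and replicate 2 held exactly the value of wild-type replicates 2 and 3. That value, 4.90, was held by 68 to 88 probe sets on each array, so it is not particular to Tbx21. The means were 5.07 ± 0.24 (SD, n = 2) in knockout and 4.83 ± 0.13 (SD, n = 3) in wild type. The difference was 0.24, with a limma 95% interval of -0.16 to 0.65 and an adjusted p of 0.623. It was 0.41 with knockout replicate 1 alone and 0.08 with replicate 2 alone. Between 58.4% and 69.1% of probe sets read lower. Eomes, the T-box gene of natural killer cells, read 2.91 on both knockout arrays and 2.91, 2.91 and 2.84 in wild-type arrays. Apart from wild-type replicate 3, all arrays held 1 value, and 17.5% to 19.1% of probe sets read lower.

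The 3 effector cytokine genes gave no common direction. Ifng, which encodes interferon-gamma, the main ILC1 product, read 3.26 on every array, with 1 deposited value for both knockout and all 3 wild-type arrays. This was also the most frequent value on each array, held by 238 to 305 probe sets, and 40 probe sets held it on all 5 arrays. Its spread was 0, so no error of its own can be attached to its difference of 0. Between 24.2% and 25.2% of probe sets read lower, which places Ifng at the lower quartile.

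Il17a, which encodes the type 3 cytokine IL-17A, read 4.36 and 3.78 in knockout arrays, against 4.36, 4.81 and 4.33 in wild-type arrays. Knockout replicate 2 was the lowest, knockout replicate 1 equalled wild-type replicate 1, and the groups overlapped. The shared value, 4.36, was held by 15 to 71 probe sets on each array. The Il17a signal stood around the array median, with 36.3% to 61.2% of probe sets lower. The means were 4.07 ± 0.41 (SD, n = 2) in knockout and 4.50 ± 0.27 (SD, n = 3) in wild type, a difference of -0.43 with a limma 95% interval of -1.16 to 0.30 and an adjusted p of 0.623. With knockout replicate 1 alone the difference was -0.14, and with replicate 2 alone -0.72. Il17f, the paralog that pairs with IL-17A, read 4.27 and 4.22 in knockout arrays and 4.27 on all 3 wild-type arrays.

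Il22, which encodes the ILC3 cytokine IL-22, read 1.36 and 2.40 in knockout arrays, against 1.36, 1.34 and 1.36 in wild-type arrays. Knockout replicate 2 stood apart and the other 4 arrays lay at the floor of their arrays, where 0.53% to 0.59% of probe sets read lower. In knockout replicate 2 that share was 10.8%, still below the lower quartile. The difference of 0.53 over both arrays was 1.05 with replicate 2 alone and 0.01 with replicate 1 alone. Knockout replicate 2 is also the array with the Xist signal. The cytotoxic granule gene Gzma read 6.56 there, 3.84 in knockout replicate 1 and 3.27 to 4.01 in wild-type arrays. Other genes of the same list were mixed in knockout replicate 2. Gzmb and Nkg7 were also highest there, at 4.255 and 7.56. Gzmk, Prf1 and Ncr1 held values there that wild-type arrays also held, and Gzmc read 2.80, below the wild-type range of 2.81 to 3.48. Whether any of this bears on Il22 was not tested.

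Promoter letters were set beside these signals, since the factors of the ILC1 and ILC3 programmes act through DNA sites. Sequences of 250 bases before the gene start were taken from RefSeq (build GRCm38.p6) for 7 of the 8 genes. The 3 shown are those of the main ILC1 cytokine, of the type 3 cytokine whose window held most motif matches, and of T-bet. They are Ifng (chr10:118440796-118441045, plus strand), Il17a (chr1:20730655-20730904, plus strand) and Tbx21 (chr11:97115332-97115581, minus strand), written 5′ to 3′ with capitals at the motif matches found.
Ifng: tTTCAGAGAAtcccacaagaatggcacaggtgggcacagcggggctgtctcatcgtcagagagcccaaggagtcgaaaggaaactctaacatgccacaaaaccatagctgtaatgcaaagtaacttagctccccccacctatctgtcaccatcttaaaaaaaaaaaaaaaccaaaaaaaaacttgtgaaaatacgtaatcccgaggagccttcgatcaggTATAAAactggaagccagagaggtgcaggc
Il17a: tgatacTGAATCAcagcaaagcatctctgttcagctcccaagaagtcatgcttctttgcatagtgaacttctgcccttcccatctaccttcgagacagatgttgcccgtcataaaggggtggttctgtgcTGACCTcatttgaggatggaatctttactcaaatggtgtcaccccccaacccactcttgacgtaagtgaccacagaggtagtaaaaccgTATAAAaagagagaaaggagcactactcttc
Tbx21: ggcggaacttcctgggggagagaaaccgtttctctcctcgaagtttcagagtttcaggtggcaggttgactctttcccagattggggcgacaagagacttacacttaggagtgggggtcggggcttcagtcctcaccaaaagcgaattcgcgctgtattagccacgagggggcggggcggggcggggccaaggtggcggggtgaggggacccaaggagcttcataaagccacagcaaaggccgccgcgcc
In Ifng, TATAAA lay 30 to 25 bases before the start, and TTCAGAGAA, of the STAT palindrome TTCNNNGAA, 249 to 241 bases before it. In Il17a, TATAAA lay 31 to 26 bases before the start, the nuclear receptor half-site AGGTCA 120 to 115 bases before it on the other strand, and the AP-1 site TGANTCA 244 to 238 bases before it. Il23r held AGGTCA at 2 places, Il12rb2 the STAT palindrome and Il22 TATAAA at 1 place each; the Il22 window lies inside the gene as that assembly's gene table bounds it. None of the 5 motifs searched on both strands, with the T-box half-site GGTGTGA as the fifth, was found in the Tbx21 or Eomes window, and GGTGTGA was in none of the 7. No matches overlapped. Of all 32851 promoters in the table, 12.4% held TATAAA, 14.0% AGGTCA, 7.02% TTCNNNGAA, 6.75% TGANTCA and 3.33% GGTGTGA. The GC content was 60.8% with 16 CpG dinucleotides in Tbx21, 45.2% with 6 in Ifng and 39.6% with 1 in Il23r, against medians of 52.4% and 6 over all promoters. These matches are descriptions of letters, and no binding was measured.

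Across the 8 genes, 3 differences lay above 0, 4 below and 1 at 0. The test was limma over 16635 genes, after the 25% of genes with the lowest mean signal were left out. Il12rb1, Tbx21 and Il17a passed that filter, while Il12rb2, Il23r, Eomes, Ifng and Il22 did not and were not tested. None of the 3 tested genes passed an adjusted p of 0.05, as did none of the 16635 (0%), and none of the 3 had an unadjusted p below 0.05, against 1271 genes (7.64%), of which 840 were higher (5.05%) and 431 lower in knockout (2.59%). In Il12rb1 alone the groups did not overlap, and it was lower in knockout. The groups did not overlap for 18.0% of all genes tested, with 6.32% lower and 11.6% higher in knockout. In a fit with no filter, which holds all 8 genes, the adjusted p-values from limma were 0.645 to 1. The 95% intervals in that fit were -0.28 to 0.12 for Il12rb2, -0.88 to 0.44 for Il23r, -0.09 to 0.14 for Eomes and -0.45 to 1.51 for Il22. For Ifng the interval of -0.09 to 0.09 came from the spread of other genes. The intervals reached 1.51 for Il22 and -1.16 for Il17a on the log2 scale, and a missed threshold does not show that the genotypes are alike.

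**Figure D2:**
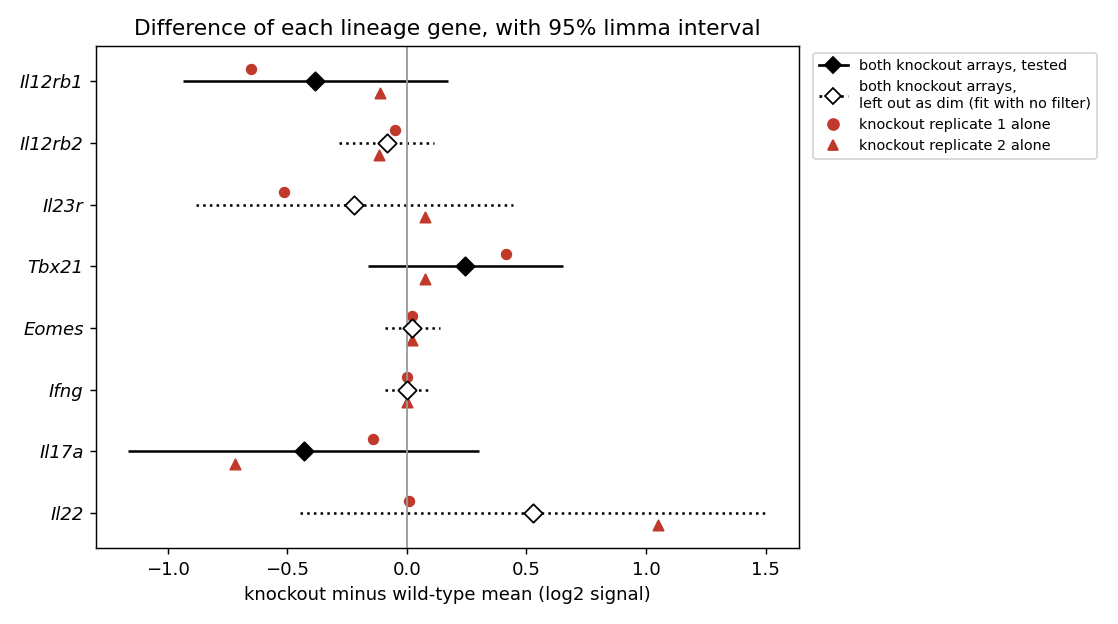
Difference of each lineage gene on the log2 scale (horizontal axis, knockout minus wild-type mean), with diamonds for both knockout arrays together and horizontal lines for the limma 95% interval. Filled diamonds are the 3 genes tested, open ones with dotted intervals the 5 left out as dim, from the fit with no filter. Circles and triangles are knockout replicates 1 and 2 alone. All 8 intervals include 0, and the 2 knockout arrays lie on opposite sides of 0 for Il23r.

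Of the IL-12 family and its signalling, the genes for the chains of IL-12 and IL-23 read near or below the array median, and Stat4 and Il2rb far above it. Il12b, the p40 chain shared by IL-12 and IL-23, read 4.09 and 3.99 in knockout arrays, against 3.65, 3.83 and 3.83 in wild-type arrays. Both knockout arrays were higher, by 0.27 on the log2 scale (SE 0.09). Il12a, the p35 chain of IL-12, read 3.96 and 3.77 in knockout arrays and 3.83 on all 3 wild-type arrays. Il23a, the p19 chain of IL-23, read 4.17 and 3.85 in knockout arrays, against 3.32, 3.85 and 4.44 in wild-type arrays, so that the knockout values lay within the wild-type range. Ebi3, a chain of IL-27 and IL-35, read 5.24 and 4.34 in knockout arrays and 5.30 to 5.76 in wild-type arrays. Its difference was -0.76 (SE 0.33), without overlap.

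Stat4, the transcription factor that IL-12 activates, read 9.09 and 7.87 in knockout arrays, against 8.97, 9.25 and 9.34 in wild-type arrays. Knockout replicate 2 was the lowest and replicate 1 lay within the wild-type range. Il2rb, the IL-2 and IL-15 receptor chain, read 8.96 and 8.37 in knockout arrays and 7.58 to 8.26 in wild-type arrays, a difference of 0.69 (SE 0.31) without overlap. The IL-18 receptor genes Il18r1 and Il18rap differed by 0.54 and -0.43, each with overlap of the groups. Of 16 members tested from a list of 19, 11 were above and 5 below 0 and none passed. The groups did not overlap for 3 of the 16, 2 higher and 1 lower, near the background of 18.0% of all genes tested. The limma adjusted p was 0.581 for Il12b, the lowest of the list. The list median was 0.09, against 0.04 over all genes tested. It was 0.29 with knockout replicate 1 alone and -0.08 with replicate 2 alone, so its sign rested on replicate 1.

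Among the further genes of the ILC1, natural killer cell and type 1 programme, Tnfsf10 stood farthest apart of those named by the rule. Tnfsf10, which encodes the death ligand TRAIL, read 5.04 and 4.29 in knockout arrays, against 6.75, 6.07 and 6.49 in wild-type arrays. Cxcr3, a chemokine receptor gene that T-bet activates in T cells, read 4.71 and 4.97 in knockout arrays and 4.63 on all 3 wild-type arrays. Both were without overlap, and their limma adjusted p-values were 0.443 and 0.623. Ncr1, the NKp46 receptor gene of natural killer cells, ILC1s and a subset of ILC3s, read 4.23 and 4.0 in knockout arrays, against 3.99, 4.0 and 4.0 in wild-type arrays, all below the array median. Of 29 members tested from a list of 38, 19 were above and 10 below 0, none passed, and the median was 0.04, as over all genes tested. The groups did not overlap for 4 of the 29, 2 higher and 2 lower, against 18.0% of all genes tested, so this is no more than the background.

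For the ILC3 and type 3 programme, differences were split evenly. Of 21 members tested from a list of 24, 11 were above and 10 below 0, none passed, and the median was 0.01. Ltb, which encodes the lymphotoxin beta of lymphoid tissue formation, read 10.36 and 10.29 in knockout arrays, against 10.80, 10.83 and 10.51 in wild-type arrays. Il7r, the IL-7 receptor gene of innate lymphoid cells and T cells, read 11.45 and 11.44 in knockout arrays and 11.26 to 11.38 in wild-type arrays. These were the 2 members without overlap, Ltb lower by 0.39 on the log2 scale and Il7r higher by 0.10, with limma adjusted p-values of 0.598 and 0.623. As a count, 2 of 21 is no more than the 18.0% without overlap among all genes tested.

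The receptor genes for interferon-gamma both read higher in knockout, while Ifng itself stayed at 1 value. Ifngr1, the ligand-binding chain, read 9.88 and 9.47 in knockout arrays, against 8.76, 9.07 and 9.07 in wild-type arrays. Ifngr2, the signalling chain, read 8.30 and 8.55 in knockout arrays, against 6.97, 7.58 and 7.78 in wild-type arrays. Neither overlapped, and their limma adjusted p-values were 0.528 and 0.558. Psmb9, an interferon-inducible immunoproteasome subunit, read 6.84 and 6.38 in knockout arrays and 6.98 to 7.11 in wild-type arrays. Of 21 members tested from the list of 27 interferon-gamma receptor and response genes, 9 were above and 11 below 0, and none passed. The groups did not overlap for 4 of the 21, 2 higher and 2 lower. This is near the background of 18.0% of all genes tested. The median was -0.15 over both knockout arrays, 0.00 with knockout replicate 1 alone and -0.04 with replicate 2 alone.

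Receptor genes for IL-17 and IL-22 had no member without overlap, among 6 tested and against 18.0% of all genes. Of these 6, from a list of 7, 3 were above and 3 below 0, with a median of -0.02. The ILC2 identity list had a median of -0.08. Of 21 members tested from a list of 25, 7 were above and 14 below 0 and none passed. The groups did not overlap for 9 of them, 5 higher and 4 lower, against 18.0% of all genes, and 6 had an unadjusted p below 0.05, against 7.64% of all genes. The list was chosen with earlier results of these data known, so these counts cannot be read as an enrichment. Its genes with the lowest p without overlap were Icos, Lmo4 and Il17rb, at 1.27, 0.76 and -0.23 on the log2 scale. For these lists as for the lineage genes, the number of members past the threshold was 0 in each.

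**Figure D3:**
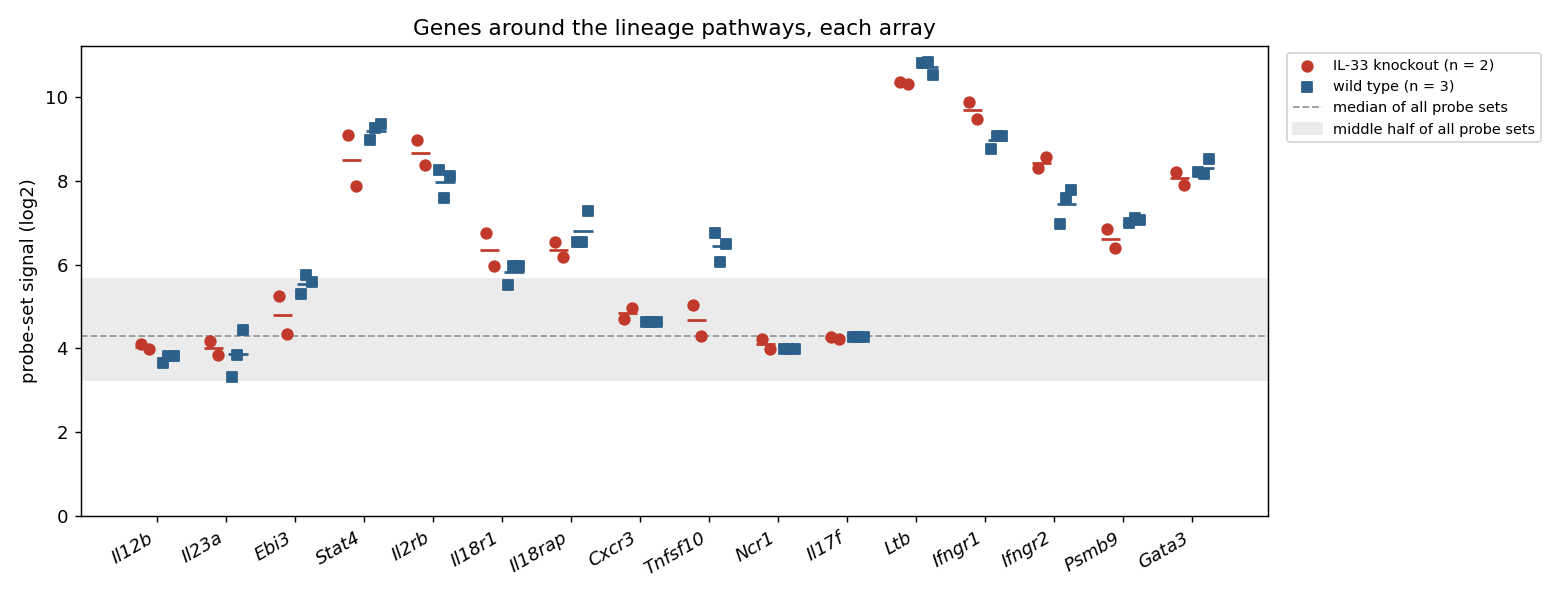
Probe-set signal (log2, vertical axis) of genes around the lineage pathways on each array, IL-33 knockout as circles (n = 2) and wild type as squares (n = 3), with lines at the group means and the band and dashed line for all probe sets. Ifngr1 and Ifngr2 are higher and Tnfsf10, Ebi3, Psmb9 and Ltb lower in both knockout arrays. Cxcr3 and Il17f held 1 value on all 3 wild-type arrays.

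**Figure D4:**
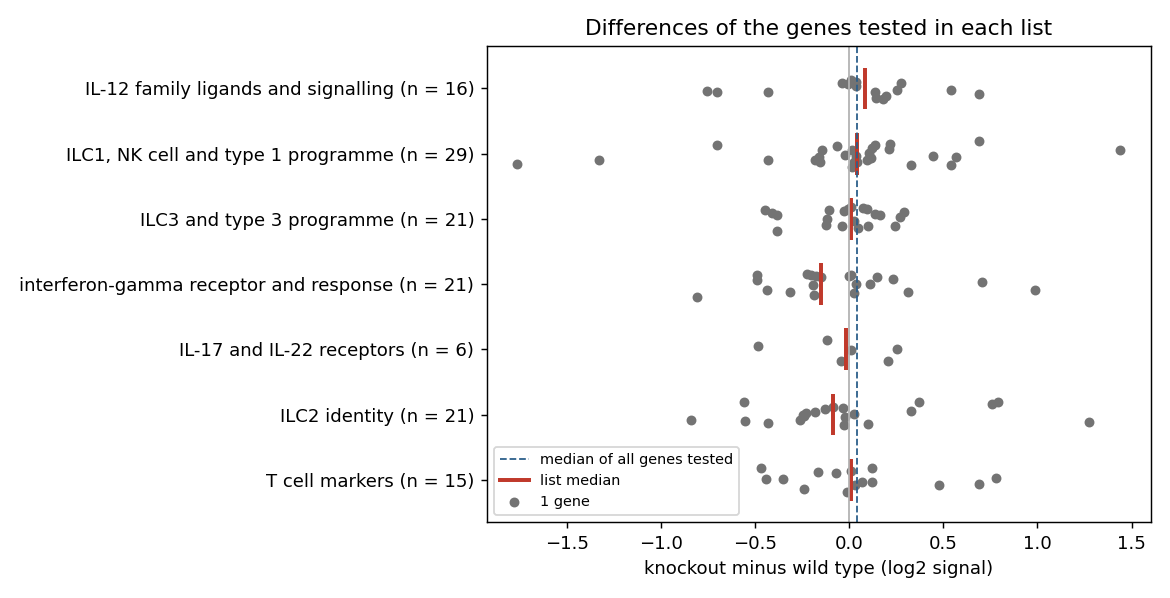
Differences (log2, knockout minus wild type, horizontal axis) of the genes tested in each list, 1 point a gene, with the list median as a vertical bar and the median of all genes tested as a dashed line. Medians of the 7 lists drawn ran from -0.15 for the interferon-gamma list to 0.09 for the IL-12 family, and points of each lie on both sides of 0.

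Markers of other cells that could carry these transcripts did not all stay level. T cell markers averaged 5.37 to 5.38 in knockout arrays and 5.27 to 5.38 in wild-type arrays over 16 genes. Cd3e, a chain of the T cell receptor complex, read 4.88 and 5.34 in knockout arrays, against 5.44, 5.44 and 5.86 in wild-type arrays. Cd28 and Cd8a, a costimulatory receptor and a coreceptor of T cells, went the other way without overlap, by 0.78 and 0.48 on the log2 scale. Of 15 T cell markers tested, 8 were above and 7 below 0. The groups did not overlap for 2 higher and 2 lower, against 11.6% higher and 6.32% lower of all genes tested. The ILC1 and natural killer cell list averaged 5.22 to 5.23 in knockout and 5.20 to 5.27 in wild type over 35 genes. Macrophage and dendritic cell markers, of the cells that make IL-12 and IL-23, averaged 4.13 to 4.20 in knockout and 3.96 to 4.21 in wild type over 19 genes. B cell markers averaged 4.78 to 4.89 in knockout and 4.69 to 4.89 in wild type over 7 genes. Lung epithelium markers averaged 5.37 and 4.47 in knockout and 4.07 to 4.20 in wild type over 13 genes. Of 10 tested, 8 were above and 2 below 0, with a median of 0.26. Of these 10, 4 were higher without overlap, against 11.6% of all genes tested. The part of epithelial transcripts in the differences above was not tested.

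Il17a and Il22 were the lineage genes that spanned at least 1 log2 unit over the arrays, and each had close matches in shape among other genes. Likeness was the root mean square difference between gene-centred log2 values over 5 arrays. Nearest to Il17a were Fgfrl1, Shmt2 and Ddx47, at 0.029, 0.036 and 0.039 log2 units, and 31 of 14229 genes lay within 0.1. For Il22, among 14230 genes, the nearest were Chaf1b, Lcn12 and Tbc1d19, at 0.018, 0.022 and 0.025, with 34 within 0.1. All 3 genes nearest to Il22 shared its higher value in knockout replicate 2 alone, which a ranking by likeness to that shape requires.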

How the data were processed

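RNA was isolated with Trizol and labelled with biotin using a Nugen kit, per the labels' protocols. The authors deposited log2 probe-set signals. The submitters' processing notes name Affymetrix Expression Console and RMA, with no version or setting. RMA usually brings all arrays to a common distribution, and a change shared by every transcript would then be lost. Arrays often held equal values: 33.7% of genes had 5 distinct values and 3.63% had 1, which makes some spreads 0. Precision is limited by the number of arrays.

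Of 41345 probe sets, 23521 had 1 symbol, 1814 several and 16010 none. Symbols were updated by gene identifier through RefSeq (GRCm38.p6), with 23328 matched. No genome build is named in the files. A gene with several probe sets was represented by the one of highest mean over the 5 arrays. The genotype test was lmFit and eBayes of limma 3.58.1 (R 4.3.3), two-sided and without a block, with Benjamini-Hochberg adjustment over 16635 genes. It was also run on simulated data, with changes larger than the differences of the tested lineage genes. That run therefore does not show how often differences of their size would be found. No exact permutation test was run, because 5 arrays allow 10 splits and a smallest p of 0.1. The genes and lists were chosen with earlier results of these data known. Named were the 8 lineage genes, a set of defining genes, and up to 3 genes per list with the lowest p and no overlap of the groups. Of the defining genes, 1 is not reported here. Also named, after their values were seen, were Il12a, Gzma, Gzmb, Gzmc, Gzmk, Prf1, Bpifa1, Scgb3a2, Scgb1a1 and Krt18. The same holds for Kdm5d, Eif2s3y, Uty, Cd28 and Cd8a, and for the genes named below for fits with a lone knockout array. Alternatives covered the filter, probe sets, normalization, variance model, a replicate block and leaving out each array.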

Additional observations from a re-analysis of the deposited data

How the results depend on the processing

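With limma the count of genes past the threshold was 0 and stayed 0 with no filter, with the dimmer 50% of genes left out, with probe sets averaged, after quantile normalization or median centring, with other variance models, with the replicate block (value 0), without each wild-type array and at an adjusted p of 0.1. Without knockout replicates it reached 1072 (replicate 1 left out) and 389 (replicate 2 left out), a range of 0 to 1072 over the fits that left out 1 array; a lone knockout array was assumed to vary like the wild type. None of the 3 lineage genes tested passed in any fit: adjusted p-values ran from 0.180 to 0.818 for Il12rb1, from 0.326 to 0.927 for Il17a and from 0.361 to 0.887 for Tbx21, and their directions held in all fits. Leaving out 1 array gave -0.52 to 0.078 for Il23r, 0.0076 to 1.05 for Il22, -0.65 to -0.11 for Il12rb1, -0.72 to -0.14 for Il17a and 0.08 to 0.41 for Tbx21. Ifng moved to -0.0021 after quantile normalization and to -0.011 after median centring, by construction of those settings. With 50% of genes left out, Il17a gave no value. With a lone knockout array, list members past the threshold ran from 0 to 2 for the IL-12 family (Il15, Il15ra), for the ILC1 list (Cxcr3 and Nkg7, with Nkg7 in opposite directions on the 2 arrays) and for IL-17 and IL-22 receptors (Il10rb, Traf3ip2), from 0 to 4 for ILC2 identity, and from 0 to 1 for T cell, macrophage and epithelium markers; the cause was not tested. Replicate numbers correlated by -0.046 (replicate 1) and 0.143 (replicate 2) in their deviations from the group means, and 2 pairs do not settle whether the numbers pair the arrays. With the replicate block the differences were -0.41 for Il12rb1, -0.51 for Il17a and 0.28 for Tbx21.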
